A study of Rattus norvegicus with 12 samples.

Results

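The prostaglandin genes examined here were Pla2g4a, Ptgs1, Ptgs2, Ptges, Ptges2, Ptges3, Ptgis, Ptger2, Ptger4 and Hpgd, 10 of the 22442 gene records in an RNA-seq experiment on fibroblast-like synoviocytes (FLS). They were taken by gene name, and each name belonged to 1 record. FLS are the mesenchymal lining cells of the joint. All cells came from the synovium of male Sprague Dawley rats with adjuvant arthritis (AA) induced by complete Freund's adjuvant, were grown as adherent cultures and were used at the third passage. The 12 poly(A) libraries formed 4 groups of 3. The FCA group was kept in DMEM without further treatment. The AT01, AT1 and AT10 groups received taurochenodeoxycholic acid (TCDCA), a taurine-conjugated bile acid, at 0.1, 1 and 10 µM for 12 h. None of the 4 groups came from rats without arthritis, so every difference below is between AA cells with and without TCDCA. The study calls the replicate numbers 1 to 3 sets of repeats. Whether these were separate animals or cultures is not given in the sources used here, and the p-values may measure technical spread alone.

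Prostanoids are made in a short chain. Cytosolic phospholipase A2 frees arachidonic acid from membranes, a cyclooxygenase converts it to the unstable intermediate PGH2, and terminal synthases turn PGH2 into PGE2, prostacyclin and other products, which act on G protein-coupled receptors until dehydrogenases inactivate them. In the synovium the inducible cyclooxygenase COX-2 and the inducible PGE2 synthase are known for their part in pain and swelling, and cyclooxygenases are the targets of the non-steroidal anti-inflammatory drugs. The deposited data hold mRNA values and no measurement of any prostanoid.

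The values are FPKM (fragments scaled for transcript length and for the mapped total of the library), so levels can be set side by side between genes. Ptgs1 was the most abundant of the 10, with a mean of 186 FPKM over the 12 libraries, which ranked 230 among the 11611 records that averaged 1 FPKM or more. Ptges3 followed with 82.5 FPKM, Ptgs2 with 37.2 FPKM, Pla2g4a with 19.3 FPKM and Ptges2 with 11.4 FPKM. Ptger4 averaged 5.04 FPKM, Ptges 4.39 FPKM and Hpgd 2.56 FPKM. Ptger2, at 0.366 FPKM, and Ptgis, at 0.0975 FPKM, stayed below the limit of 1 FPKM, so that 8 of the 10 genes entered the main test. Along this order the ranges over the 12 libraries were separate between Ptgs1 and Ptges3, between Pla2g4a and Ptges2, and between Hpgd and Ptger2, whereas Ptges3 overlapped Ptgs2, Ptgs2 overlapped Pla2g4a, Ptger4, Ptges and Hpgd overlapped one another, and Ptger2 overlapped Ptgis.

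**Figure D1:**
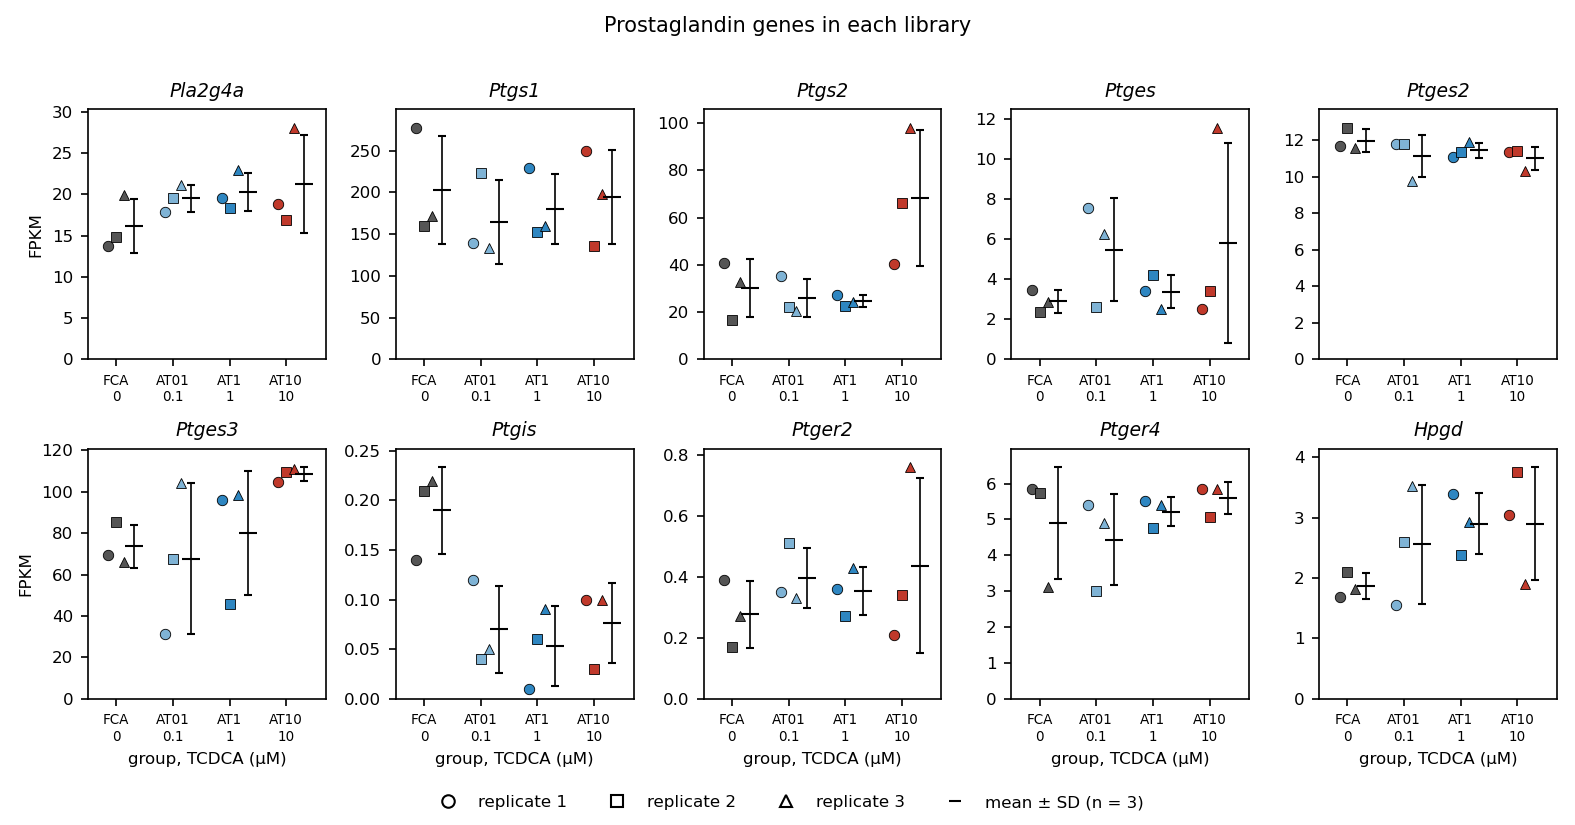
FPKM of the 10 prostaglandin genes (y axis from 0, a scale of its own in each panel) in the 3 libraries of each group, ordered by TCDCA dose in µM on the x axis; symbols are single libraries and the bar beside them is the mean ± SD (n = 3). Ptgs2 was highest in AT10 replicates 2 and 3, at 66.2 and 98.0 FPKM, Ptges3 had 105 to 111 FPKM in the 3 AT10 libraries, and Ptgis was highest in the 3 FCA libraries.

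The library values were compared as log2(FPKM + 1) with limma, for 2 groups in each fit, and p-values were adjusted by the Benjamini-Hochberg method over all 11611 records. Fold changes are on that log2 scale, which understates changes of low genes. The criterion of the study asked for an unadjusted p under 0.05 and, on the log2 scale, a difference of more than 1 in either direction. The FPKM carry no read counts, so the counting error of a single value is unknown. The exact permutation test of the means was two-sided and cannot give a p under 0.1 for 3 libraries against 3, or under 0.00909 for 9 against 3. The 3 comparisons with FCA share the FCA libraries and are not independent of one another, and the comparisons of AT10 with the other doses share the AT10 libraries.

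Between AT10 and FCA, Ptgs2 met the criterion of the study, Ptges3 had an unadjusted p under 0.05 with a smaller difference, and the other 6 genes tested did neither. Those counts, 1 and 2 of 8, stand against 0.706% and 11.9% of all records tested. The AT10 libraries lay above all FCA libraries for Ptges3 and below them for Ptges2, and groups without overlap made up 19.9% of all records in this comparison. Between AT1 and FCA, only Hpgd had an unadjusted p under 0.05, against 11% of all records, and its AT1 libraries did not overlap FCA, which held for 19.9% of all records. No gene of the 8 met the criterion there, against 0.62% of all records. Between AT01 and FCA, 0 of 8 had an unadjusted p under 0.05 (6.6% of all records), 0 met the criterion (0.758%) and 0 were without overlap (14%). No adjusted p from limma was under 0.05 for any of the 8 in these comparisons, where 0.172%, 0.0947% and 0.0947% of all records in AT10, AT1 and AT01 had one, and the smallest was 0.161, for Ptges3 in AT10.

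The first step is represented by Pla2g4a (record MSTRG.5130), the calcium-dependent cytosolic phospholipase A2 that releases arachidonic acid. Its values were 13.8, 14.9 and 19.9 FPKM in FCA, 17.9, 19.5 and 21.1 FPKM in AT01, 19.6, 18.4 and 22.9 FPKM in AT1, and 18.9, 16.9 and 28.1 FPKM in AT10. All 9 TCDCA libraries were above the 2 lower FCA libraries, and 3 of the 9 were also above FCA replicate 3, so the groups overlapped. Those 3 were replicate 3 of each dose, and replicate 3 was the highest library in every group. Log2 fold changes against FCA were 0.27 in AT01, 0.32 in AT1 and 0.36 in AT10, and the 3 doses together gave 0.32 (95% interval 0.01 to 0.62, unadjusted p = 0.0453, adjusted p = 0.404 from limma, exact permutation p = 0.0636). Pla2g4a was the only one of the 8 genes with an unadjusted p under 0.05 in that fit of 9 libraries against 3, against 12% of all records, and 0 of 8 met the criterion (0.491%), had an adjusted p under 0.05 (0.0258%) or were without overlap (2.86%). In bulk RNA, a change in RNA per cell and a change in the share of cells that make it cannot be told apart, here or in any value below. In the rat gene table of RefSeq (GRCr8), Pla2g4a and Ptgs2 are neighbours on chromosome 13 with 0 protein-coding genes between them.

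Cyclooxygenases take the second step. Ptgs1 (MSTRG.11015) encodes COX-1, the constitutive enzyme, and Ptgs2 (MSTRG.5133) encodes COX-2, the form induced by cytokines and growth factors. The 250 bases before the RefSeq start of each gene (GRCr8) are shown here because the FLS expressed the pair so differently: Ptgs1 was high in every library, and Ptgs2 was lower and had the widest spread on the log2 scale of the 8 genes tested. The promoter table matched 8 of the 10 genes and was searched on both strands, from 250 bases before to 50 bases after the start, for 8 motifs: the E-box CACGTG, the C/EBP motif TTNNGCAA, the EGR1 motif GCGNGGGCG, the GC box GGGCGG, the AP-1 motif TGANTCA, the TATA box TATAAA, the CRE half-site TGACG and the NF-kB motif. Of 33469 rat promoters of this length, 6.42% held the E-box, 10.6% the C/EBP motif, 4.98% the EGR1 motif, 33.1% the GC box, 7.33% the AP-1 motif, 14.2% the TATA box, 21.2% the CRE half-site and 4.18% the NF-kB motif. Sequences run 5′ to 3′ on the strand of the gene, capitals mark matches, and positions count back from the start. The Ptgs1 promoter (chr3:39981169-39981418, plus strand) held none of the 8. The Ptgs2 promoter (chr13:64713813-64714062, plus strand) held a GC box from -238 to -233, a C/EBP motif from -140 to -133 and an E-box from -55 to -50, with no overlap between them.
Ptgs1: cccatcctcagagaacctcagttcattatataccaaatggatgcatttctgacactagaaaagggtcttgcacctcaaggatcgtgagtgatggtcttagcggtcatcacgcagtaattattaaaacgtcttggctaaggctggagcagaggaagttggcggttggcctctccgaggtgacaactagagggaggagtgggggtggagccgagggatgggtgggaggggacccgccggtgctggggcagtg
Ptgs2: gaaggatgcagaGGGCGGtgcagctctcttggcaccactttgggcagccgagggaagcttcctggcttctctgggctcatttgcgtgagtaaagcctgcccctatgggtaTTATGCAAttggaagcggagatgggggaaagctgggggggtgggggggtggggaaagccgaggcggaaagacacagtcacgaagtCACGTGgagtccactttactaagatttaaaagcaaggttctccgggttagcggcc
A match is a description of the letters in this window and was not tested as a binding site.

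Ptgs1 had 277, 160 and 172 FPKM in FCA, 139, 223 and 133 FPKM in AT01, 229, 152 and 160 FPKM in AT1, and 249, 136 and 198 FPKM in AT10. The groups overlapped, and the spread within each of them was wide beside the differences of their means. On the log2 scale it differed from FCA by -0.29 in AT01, -0.15 in AT1 and -0.06 in AT10, with a 95% interval of -0.81 to 0.68 at the highest dose (adjusted p = 0.945 from limma), which leaves room for differences in either direction.

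Ptgs2 had 40.8, 16.6 and 32.9 FPKM in FCA (mean 30.1 ± 12.3, SD, n = 3). It had 35.1, 22.1 and 20.3 FPKM in AT01 (25.8 ± 8.08) and 27.4, 22.5 and 24.4 FPKM in AT1 (24.8 ± 2.47). The AT10 libraries had 40.5, 66.2 and 98.0 FPKM (68.2 ± 28.8). Every AT10 library was above every AT01 and AT1 library, and 2 of 3 were above every FCA library, while AT10 replicate 1 stood just under FCA replicate 1. Against FCA, the log2 fold change in AT10 was 1.16 (standard error 0.44, 95% interval 0.07 to 2.25, unadjusted p = 0.0412, adjusted p = 0.403 from limma, exact permutation p = 0.2). In AT01 and AT1 it was -0.16 and -0.19, with unadjusted p = 0.677 and 0.590 from limma.

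The difference between doses was tested directly. Ptgs2 was higher in AT10 than in AT1 by 1.34 on the log2 scale (standard error 0.32, unadjusted p = 0.00614, adjusted p = 0.570 from limma) and higher than in AT01 by 1.32 (standard error 0.36, unadjusted p = 0.0118, adjusted p = 0.867), in both with an exact permutation p = 0.1, the smallest possible. Ptgs2 was the only one of the 8 genes past the criterion of the study in these comparisons, which 0.594% and 0.672% of all records met, and the only one with an unadjusted p under 0.05 (6.46% and 4.97%). An adjusted p under 0.05 was reached by 0.258% and 0.0689% of all records. Over the dose rank from FCA to AT10, its slope was 0.34 per step (unadjusted p = 0.0397, adjusted p = 0.422 from limma), against 11.2% of all records with an unadjusted p under 0.05 and 0% with an adjusted one. The call against FCA depended on single libraries: the log2 fold change was 0.85 without AT10 replicate 3 (unadjusted p = 0.120) and 0.79 without FCA replicate 2 (unadjusted p = 0.104), and the p was also over 0.05 without FCA replicate 3 or AT10 replicate 2, at log2 fold changes of 1.26 and 1.13. With the replicate number as a block, the unadjusted p from limma was 0.0650 for AT10 against FCA and 0.0518 for the slope. Without AT10 replicate 3 the differences from AT1 and AT01 were 1.04 and 1.02, with unadjusted p = 0.00802 and 0.0289 from limma.

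Set against Ptgs1 within the same library, Ptgs2 made up 12.8, 9.41 and 16.1% of the FPKM of both cyclooxygenases in FCA, 20.2, 9.0 and 13.2% in AT01, and 10.7, 12.9 and 13.2% in AT1. In AT10 the share was 14% in replicate 1 and 32.7 and 33.1% in replicates 2 and 3. COX-1 mRNA was thus the more abundant cyclooxygenase transcript in all 12 libraries. AT10 replicate 1 lay within the range of the other groups, and this share was chosen after its values were seen and has no test.

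AT10 replicate 3 was the highest of the 12 libraries for 4 of the 8 genes tested (Ptgs2, Ptges, Ptges3 and Pla2g4a) and for 12.3% of all records tested, and it was also the highest for Ptger2. It was the lowest for 0 of the 10 genes and for 10.9% of all records tested. Of 17 FLS and smooth muscle markers it was the lowest library for 4, which were Col1a1, Col3a1, Prg4 and Acta2, and the highest for 0. Some other libraries were extreme as often among the markers or among all records. For the 10 genes this did not hold, and no other library was the highest for more than 2. FCA replicate 2 was the lowest for 5 of the 17 markers and the highest for 4. It was the highest for 12.7% of all records tested, and AT01 replicate 1 for 14.1%. AT01 replicate 3 was the lowest for 13.6% of them. In AT10 replicate 3, Col1a1 stood at 571 FPKM (721 to 1072 FPKM in the other 11) and Acta2 at 125 FPKM (185 to 370 FPKM in the other 11). Dcn, at 1357 FPKM, was near the top of its range. The part of that library's composition in these values was not tested.

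Of the terminal synthases, Ptges (MSTRG.10904) encodes mPGES-1, the membrane enzyme that is induced together with COX-2. Its promoter (chr3:34586988-34587237, minus strand), shown because it is the only one of the 8 matched that held the EGR1 motif, had that motif from -74 to -66, a GC box from -87 to -82 and a C/EBP motif from -221 to -214, also without overlap.
Ptges: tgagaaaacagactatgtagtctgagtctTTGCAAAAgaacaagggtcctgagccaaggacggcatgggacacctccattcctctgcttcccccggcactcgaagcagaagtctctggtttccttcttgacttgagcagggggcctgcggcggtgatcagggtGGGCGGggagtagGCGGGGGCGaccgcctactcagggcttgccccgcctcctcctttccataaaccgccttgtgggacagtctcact
Ptges had 3.47, 2.36 and 2.84 FPKM in FCA, 7.57, 2.62 and 6.24 FPKM in AT01, 3.43, 4.21 and 2.52 FPKM in AT1, and 2.51, 3.39 and 11.6 FPKM in AT10. High values stood in 2 AT01 libraries and 1 AT10 library, each beside libraries of the same group at the FCA level, so that all groups overlapped. Log2 fold changes against FCA were 0.65 in AT01 (95% interval -0.19 to 1.49, adjusted p = 0.747 from limma), 0.16 in AT1 and 0.58 in AT10 (95% interval -0.63 to 1.80, adjusted p = 0.645). Without AT01 replicate 2 the value for AT01 was 1.03 (unadjusted p = 0.00193 from limma) and met the criterion of the study.

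Ptges3 (MSTRG.15437) encodes p23, the cytosolic PGE2 synthase that is better known as a co-chaperone of Hsp90 in steroid receptor complexes. It had 69.4, 85.6 and 65.9 FPKM in FCA, 31.2, 67.6 and 104 FPKM in AT01, 96.0, 45.7 and 98.6 FPKM in AT1, and 105, 110 and 111 FPKM in AT10. The 3 AT10 libraries lay close together and above the other 9, over AT01 replicate 3 by a narrow margin, and the AT01 and AT1 libraries spread to both sides of FCA. The log2 fold change in AT10 was 0.56 against FCA (standard error 0.11, 95% interval 0.30 to 0.83, unadjusted p = 0.00230, adjusted p = 0.161 from limma, exact permutation p = 0.1), and between 0.49 and 0.67 with each library left out in turn. With 1 fit over all 12 libraries, which takes in the wider spread of AT01 and AT1, its unadjusted p was 0.191. AT10 was higher than AT1 by 0.51 and than AT01 by 0.83, with unadjusted p = 0.146 and 0.0959 from limma. Both Ptgs2 and Ptges3 had all AT10 libraries above all AT1 and all AT01 libraries, 2 of 8 genes, against 5.7% and 4.64% of all records that did so in that direction and 13.9% and 11.1% in either. RefSeq lists a pseudogene of Ptges3, and reads that match both could be assigned to either, so its level is uncertain.

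Ptges2 (MSTRG.10944), the synthase of the Golgi membrane, was the steadiest of the 8 genes tested, with 11.7, 12.7 and 11.6 FPKM in FCA and 11.3, 11.4 and 10.3 FPKM in AT10. The AT10 libraries were all below the FCA libraries by a small amount, a log2 fold change of -0.11 (95% interval -0.29 to 0.07, unadjusted p = 0.174, adjusted p = 0.563 from limma). In AT1 and AT01 it ranged from 9.79 to 11.9 FPKM and overlapped FCA.

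Ptgis, the prostacyclin synthase (ENSRNOG00000008245), was at the edge of detection. It was listed at 0.14, 0.21 and 0.22 FPKM in FCA, 0.12, 0.04 and 0.05 FPKM in AT01, 0.01, 0.06 and 0.09 FPKM in AT1, and 0.10, 0.03 and 0.10 FPKM in AT10. All 9 TCDCA libraries were below all 3 FCA libraries, which held for 0.406% of the 10345 records above 0 with a mean under 1 FPKM. With no filter on low values the 3 doses together differed from FCA by -0.16 on the log2 scale (95% interval -0.23 to -0.09, unadjusted p = 0.000503, adjusted p = 0.222 from limma), and the exact permutation p was 0.00909, the smallest that 9 libraries against 3 allow. The values are given to 2 decimals, and how many reads they rest on is unknown.

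PGE2 acts on several receptors, of which Ptger2 (EP2) and Ptger4 (EP4) couple to Gs and raise cAMP. Ptger4 (MSTRG.9169), whose record holds an assembled transcript and no Ensembl one, had 5.86, 5.74 and 3.11 FPKM in FCA, 5.4, 2.99 and 4.9 FPKM in AT01, 5.51, 4.75 and 5.4 FPKM in AT1, and 5.85, 5.07 and 5.84 FPKM in AT10. Low values stood in 1 FCA and 1 AT01 library, and the groups overlapped. The log2 fold change in AT10 was 0.19 (95% interval -0.34 to 0.73, adjusted p = 0.721 from limma), against -0.11 in AT01 and 0.11 in AT1, and at each dose the direction changed when 1 library was left out (FCA replicate 3 for AT10 and AT1). Ptger2 (ENSRNOG00000050968) had 0.17 to 0.39 FPKM in FCA, 0.33 to 0.51 FPKM in AT01, 0.27 to 0.43 FPKM in AT1 and 0.21, 0.34 and 0.76 FPKM in AT10, and its groups overlapped as well. EP4 mRNA was higher than EP2 mRNA in every library, and Ptger3 (EP3) lay between 0.08 and 0.23 FPKM. Ptger1 (EP1) was listed at 0 in 3 libraries, FCA replicate 3 and AT10 replicates 1 and 3, and had 2.55 to 6.52 FPKM in the other 9, with no values between, so no change is read from it.

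Hpgd (MSTRG.6980) encodes 15-hydroxyprostaglandin dehydrogenase, which starts the breakdown of PGE2. It had 1.69, 2.10 and 1.81 FPKM in FCA, 1.56, 2.59 and 3.52 FPKM in AT01, 3.39, 2.38 and 2.93 FPKM in AT1, and 3.04, 3.76 and 1.90 FPKM in AT10. All 3 AT1 libraries and 2 libraries each of AT10 and AT01 were above every FCA library. The log2 fold change was 0.44 in AT1 (standard error 0.12, 95% interval 0.13 to 0.75, unadjusted p = 0.0134, adjusted p = 0.420 from limma, exact permutation p = 0.1), 0.42 in AT10 and 0.28 in AT01. For the 3 doses together it was 0.38 (unadjusted p = 0.0502, adjusted p = 0.417, exact permutation p = 0.0818), higher than all FCA values in 7 of 9 libraries. No pair of doses had an unadjusted p under 0.05, and AT10 against AT1 was -0.02 (95% interval -0.54 to 0.50).

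**Figure D2:**
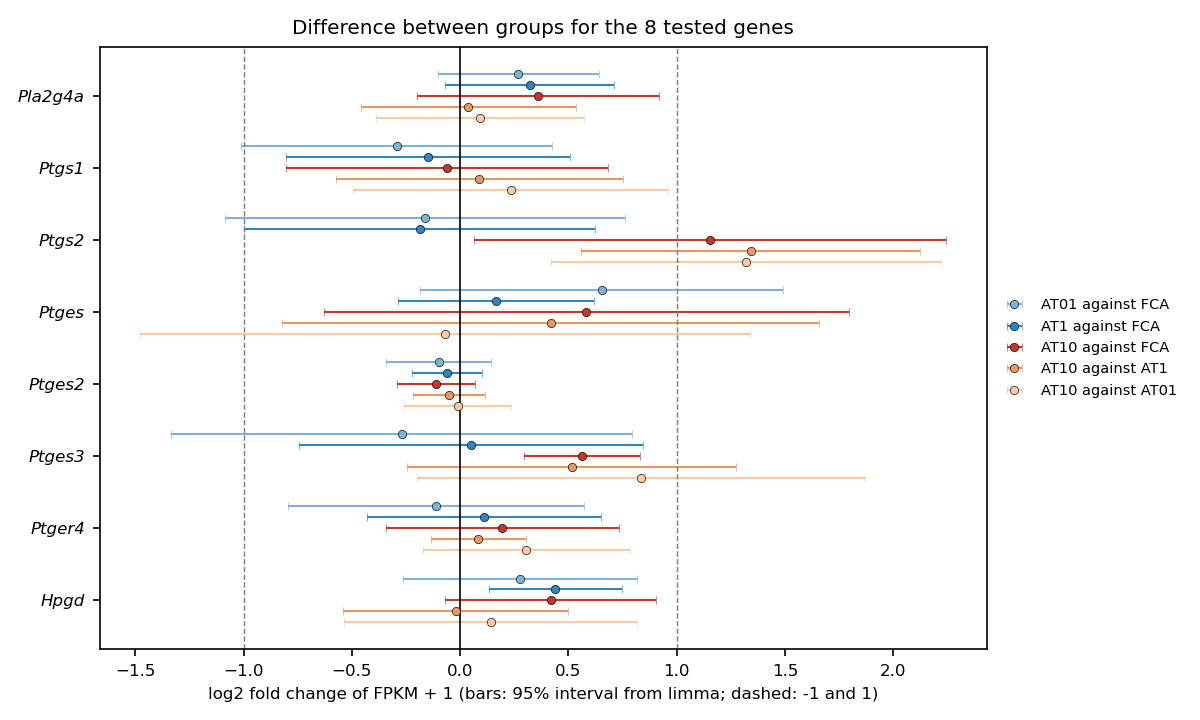
Log2 fold change of FPKM + 1 (x axis) for the 8 genes tested (y axis), with 95% intervals from limma as bars, in the 3 comparisons with FCA and for AT10 against AT1 and AT01; dashed lines stand at -1 and 1. The Ptgs2 intervals for AT10 start at 0.07 against FCA, 0.56 against AT1 and 0.42 against AT01, and the Ptges3 interval for AT10 against FCA runs from 0.30 to 0.83.

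Across the 8 genes, 6 were higher in AT10 than in FCA, with a median log2 fold change of 0.39 against -0.01 over all records. In AT1, 5 were higher (median 0.08, all records 0.02), and in AT01 3 were higher (median -0.11, all records 0.0017). Between AT1 and AT01, 0 of the 8 met the criterion (0.568% of all records), 0 had an unadjusted p under 0.05 (3.43%) or an adjusted one (0.129%), and 0 were without overlap (8.6%).

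The genes around this chain were taken from 7 lists, 78 distinct genes of which have a record. In the list of arachidonate release, 10 of 16 named records were tested, and the numbers with an unadjusted p under 0.05 were 1 higher and 0 lower in AT10, 0 higher and 2 lower in AT1, and 1 higher and 1 lower in AT01. Over all records, 11.9%, 11% and 6.6% had such a p in either direction. Acsl4, the acyl-CoA ligase that favours arachidonate, had 13.9, 14.2 and 15.9 FPKM in FCA and 22.6, 23.0 and 25.6 FPKM in AT10. The groups did not overlap, which held for 19.9% of all records in this comparison. The log2 fold change was 0.66 (standard error 0.08, unadjusted p = 0.000284, adjusted p = 0.0868 from limma), while in AT01 Acsl4 ranged from 12.5 to 24.4 FPKM. Pla2g15, a lysosomal phospholipase, had 6.36, 18.2 and 15.6 FPKM in FCA and 4.42 to 8.36 FPKM over the 9 TCDCA libraries. FCA replicate 1 lay within the TCDCA range. Pla2g15 alone of the 10 met the criterion of the study in AT1 and AT01, which 0.62% and 0.758% of all records met. Its log2 fold changes there were -1.02 and -1.12 (adjusted p = 0.437 and 0.720 from limma). Without FCA replicate 2 these were -0.76 and -0.85 and without FCA replicate 3 -0.86 and -0.96, and neither then met the criterion. It was also missed in AT1 without any single AT1 library, and in AT01 without AT01 replicate 2 or 3 (unadjusted p from 0.0571 to 0.0974 in limma). The others, named after their values were seen, were Daglb in AT1 (-0.21) and Pla2g16 in AT01 (0.44). Secreted Pla2g2a, at 8.23 to 20.2 FPKM, and Lpcat3, at 31.3 to 41.9 FPKM, had no unadjusted p under 0.05 against FCA.

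Several enzymes that open other branches of the pathway were listed at or near 0. The PGD2 synthase Ptgds was at 0.06 FPKM or less and the thromboxane synthase Tbxas1 at 0.11 FPKM or less in all libraries, as was Alox5, the first enzyme of the leukotriene branch, at 0.04 FPKM or less, with Ltc4s at 0.1 FPKM or less and Alox5ap at 0.35 FPKM or less. Other genes of the leukotriene list were well expressed, with Lta4h, which acts on the product of Alox5, at 19.9 to 25.3 FPKM, Mgst2 at 9.71 to 20.3 FPKM and Mgst3 at 9.63 to 16.5 FPKM. Hpgds, the other PGD2 synthase, had no record under that name, so its level is not known. The receptors Ptgir (IP) and Ptgfr (FP) had 3.94 to 10.1 and 3.19 to 13.7 FPKM. In the list of other prostanoid receptors, which includes Ptgfrn, a negative regulator of the FP receptor, 4 records were tested. An unadjusted p under 0.05 was found for Ptgfr in AT10 (log2 fold change 0.23, adjusted p = 0.407 from limma) and for Ptgfrn in AT1 (0.79, adjusted p = 0.439), both higher. Ptgfrn was uneven, with 73.0, 31.1 and 51.9 FPKM in AT1, 26.1, 26.3 and 64.0 FPKM in AT10, and 27.0 to 28.5 FPKM in FCA. Of 2 other synthases and reductases tested, Akr1b1, the aldose reductase with PGF synthase activity, had 167, 168 and 178 FPKM in FCA and 128, 127 and 148 FPKM in AT10, without overlap (log2 fold change -0.35, unadjusted p = 0.00486, adjusted p = 0.196 from limma). Of 8 transport and breakdown genes, Slco2a1, the prostaglandin uptake transporter, was higher in AT01 (0.49, adjusted p = 0.720; named after its values were seen), and none had an unadjusted p under 0.05 in AT10 or AT1. Ptgr1 and Ptgr2, which act after Hpgd, stayed between 34.4 and 46.4 FPKM and between 11.4 and 15.1 FPKM. Of 5 leukotriene and lipoxin genes tested, 0 had an unadjusted p under 0.05 against FCA at any dose. Beside the counts of these 4 lists, such a p was found for 11.9% of all records in AT10, 11% in AT1 and 6.6% in AT01. Groups without overlap made up 19.9% of all records in AT10 against FCA.

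**Figure D3:**
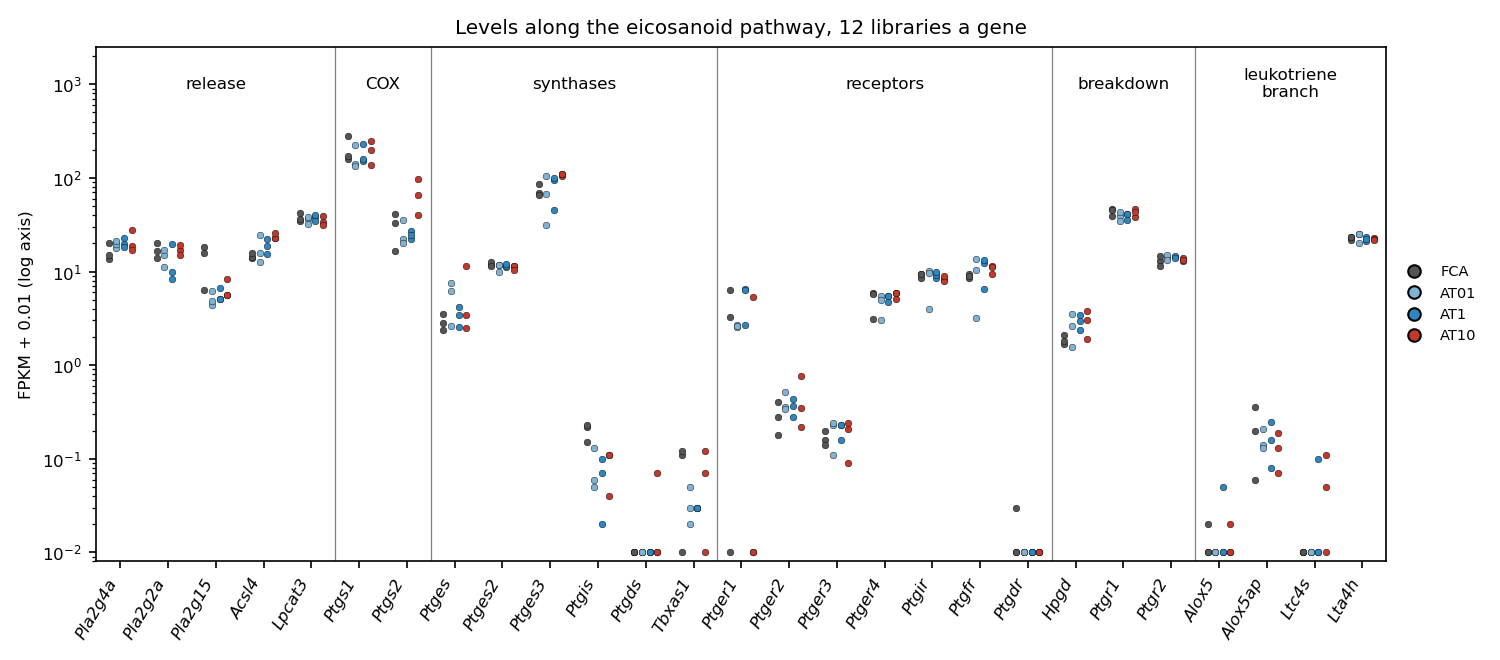
FPKM + 0.01 on a log axis (y) for genes of the eicosanoid pathway ordered by step (x), 1 point per library and coloured by group. Ptgs1 had 133 FPKM or more throughout, the receptors Ptger4, Ptgir and Ptgfr between 2.99 and 13.7 FPKM, and Ptgis, Ptgds, Tbxas1, Ptgdr, Alox5, Alox5ap and Ltc4s at 0.35 FPKM or less in every library.

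From a list set up for regulators of Ptgs2, 17 genes were tested, and whether each of them acts on Ptgs2 was not checked. By an unadjusted p under 0.05 from limma, 4 were lower in AT1 and 5 in AT01, and 0 were higher. In AT10, 3 were higher and 1 lower. Over all records the shares lower were 5.44% in AT1, 4.03% in AT01 and 4.34% in AT10, and the shares higher were 5.56%, 2.57% and 7.54%. The median log2 fold change of the 17 was -0.30 in AT1, -0.11 in AT01 and 0.12 in AT10, and no test compared the list with other genes. Egr1, an immediate early transcription factor, had 40.1, 43.2 and 41.9 FPKM in FCA and 46.7, 47.0 and 41.5 FPKM in AT10. In AT1 it had 24.3, 25.5 and 22.4 FPKM and in AT01 22.3, 28.2 and 23.4 FPKM, both below every FCA and AT10 library. The log2 fold change was -0.77 in AT1 (standard error 0.07, adjusted p = 0.0488 from limma), -0.74 in AT01 (adjusted p = 0.178) and 0.11 in AT10 (adjusted p = 0.576), and AT10 was above AT1 by 0.88 (adjusted p = 0.0261). Over 14 other settings the log2 fold change in AT1 stayed between -0.81 and -0.72, while the adjusted p ran from 0.0354 to 0.351 and was over 0.05 in 10 of them, including each of the 6 that left out a library.

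Jun, Fos and Zfp36 were the other genes lower at both lower doses. Jun, a subunit of AP-1, had log2 fold changes of -0.30 in AT1, -0.29 in AT01 and 0.01 in AT10. Fos, its partner, had 8.74, 15.0 and 8.45 FPKM in FCA and 4.54 to 6.28 FPKM over the 6 libraries of AT1 and AT01, with -0.87, -0.71 and -0.49 at 1, 0.1 and 10 µM. Zfp36, which encodes tristetraprolin, a protein that destabilises AU-rich mRNAs such as that of Ptgs2, had -0.46, -0.37 and -0.16. None of these 3 had an adjusted p under 0.05 from limma (0.306 to 0.696 in AT1 and AT01). Nr4a1, an orphan nuclear receptor induced by cAMP, from the list of PGE2 receptor signaling, was also lower at both lower doses, with 93.4 to 98.9 FPKM in FCA, 89.7 to 99.6 FPKM in AT10, and 66.9 to 74.9 FPKM in AT1 and AT01 together (log2 fold change -0.46 in AT1 with adjusted p = 0.113 from limma, -0.43 in AT01 with 0.285). The AT10 libraries of Egr1 and Nr4a1 overlapped the FCA libraries.

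In AT10 the genes of the regulator list past an unadjusted p of 0.05 were Rbm3, a cold-inducible RNA-binding protein (log2 fold change 0.17), and, named after their values were seen, Tiparp (0.46), Celf2 (0.28) and Elavl1 (-0.69), with adjusted p from 0.249 to 0.384 in limma. Zfp36l1 was the fifth gene lower in AT01, also named after its values were seen, and its AT10 libraries lay at 29.1, 1.02 and 1.19 FPKM. Dusp1, a MAP kinase phosphatase, varied from 40.7 to 194 FPKM over the 12 libraries and had no unadjusted p under 0.05 against FCA. In the list of PGE2 receptor signaling, 12 were tested, with 0 past an unadjusted p of 0.05 in AT10, 2 lower in AT1 (Nr4a1 and, named after its values were seen, Gnas at -0.17) and 1 lower in AT01 (Nr4a1), against 4.34%, 5.44% and 4.03% of all records that were lower.

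**Figure D4:**
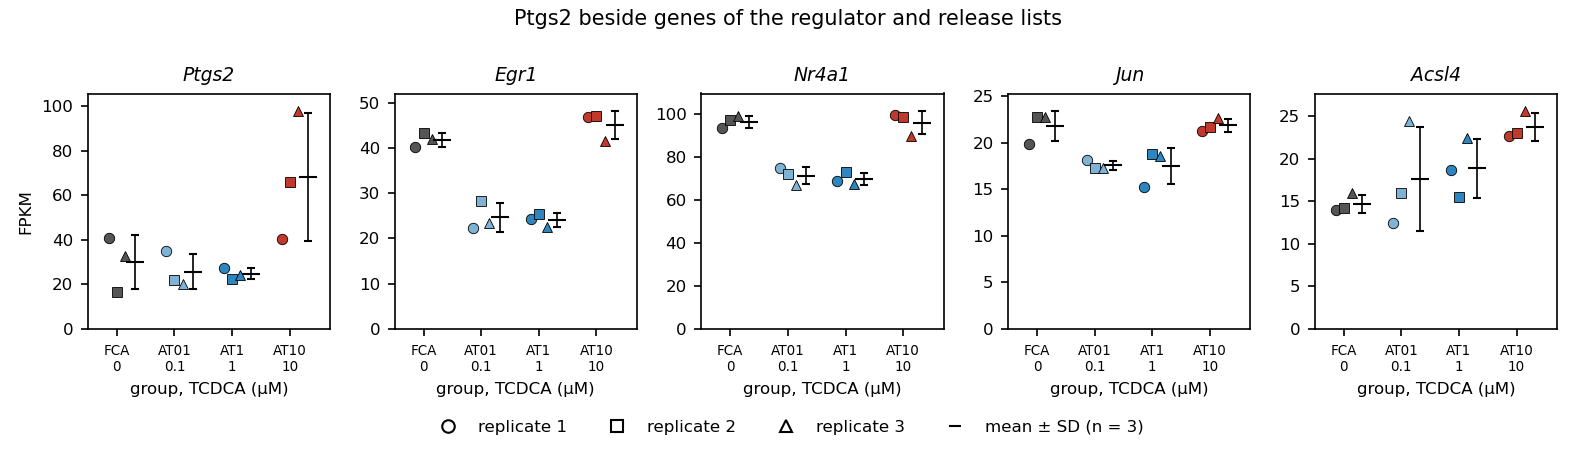
FPKM (y axis from 0) of Ptgs2, Egr1, Nr4a1, Jun and Acsl4 in the 3 libraries of each group, ordered by TCDCA dose in µM (x axis); symbols are libraries and bars the mean ± SD (n = 3). Egr1, Nr4a1 and Jun were lower in AT01 and AT1 than in FCA and AT10, whereas Ptgs2 in AT10 reached 66.2 and 98.0 FPKM in 2 of 3 libraries and Acsl4 22.6 to 25.6 FPKM in all 3.

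The prostaglandin genes varied largely apart from one another. Over the 12 libraries, Pearson's r of log2(FPKM + 1) for the 28 gene pairs had a median of 0.06 and ran from -0.65 to 0.63, and 0 of 28 had an adjusted permutation p under 0.05 (smallest 0.359). The highest was between Ptges3 and Hpgd (r = 0.63, permutation p = 0.0246, Spearman's rho = 0.60, permutation p = 0.0433), at 0.61 without the 2 libraries farthest from the median of Ptges3 and 0.74 within groups. The lowest was between Ptges and Ptges2 (r = -0.65, permutation p = 0.0256, rho = -0.56, permutation p = 0.0612), at -0.87 without the 2 farthest libraries and -0.55 within groups. The genes whose pattern over the 12 libraries was most like that of Ptgs2, chosen by Pearson's r alone among all records tested, were Plk2 (0.87), Fam188a (0.86) and Fst (0.85). Plk2, a polo-like kinase, had 13.9, 16.3 and 18.4 FPKM in AT10, 14.1, 11.4 and 15.9 FPKM in FCA, and 9.71 to 12.5 FPKM in AT1 and AT01.

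As facts of the whole series, the 12 libraries held 284210 to 309696 FPKM in sum, and 12 of 14 FLS markers had a record, all tested, with Col1a1, Vim and Dcn among the highest. Among macrophage markers 7 of 11 had a record and Cd14 (3.6 to 18.8 FPKM) and Cd68 (1.66 to 2.91 FPKM) alone were tested, with Csf1r at 0.08 to 0.26 FPKM. Of the endothelial markers only Eng was tested and 6 were under 1 FPKM in all libraries, and the 4 T and mast cell markers with a record summed to 0.22 FPKM at most. Smooth muscle and pericyte markers summed to 314 to 415 FPKM in FCA and 164 to 310 FPKM in AT10, 258 to 296 FPKM in AT1 and 230 to 292 FPKM in AT01, lower than every FCA library in all 9. Acta2 carried that sum, at a log2 fold change of -0.54 for the 3 doses together, while Cnn1, Des, Mcam and Myh11 had between -0.018 and 0.054. The sum of FLS markers was 6760 to 7251 FPKM in FCA and 5785 to 7254 FPKM in AT10. Single FLS markers, named after their values were seen, stood apart from FCA in all 9 TCDCA libraries, with Vcam1 (0.49), Lum (0.30) and Fap (0.30) higher and Thy1 (-0.22) lower (exact permutation p = 0.00909 each, adjusted p from 0.201 to 0.356 in limma). Such a lack of overlap held for 2.86% of all records. The other FLS markers tested overlapped FCA and went both ways, from -0.26 for Col1a1 to 0.17 for Dcn. The part of these markers in the values above was not tested.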

How the data were processed

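Poly(A) RNA from 12 FLS libraries was sequenced as pairs. Per the submitters' processing notes and the study's methods, the authors trimmed reads with cutadapt, aligned them with HISAT2, assembled transcripts with StringTie, and estimated expression with StringTie and Ballgown. They deposited FPKM to 2 decimals for 22442 gene records. edgeR is also named in those notes, in a role they do not state. The genome build is not given in the sources used here.

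Values were taken as log2(FPKM + 1). Records that averaged 1 FPKM or more, 11611 in all, were fitted with limma 3.58.1 (lmFit, eBayes with trend) in R 4.3.3, with the Benjamini-Hochberg adjustment over all of them. Member genes, lists and tests were chosen with earlier results of these data known. Beside all 10 genes, the text names from each pathway list the 3 of highest mean FPKM, and those with an unadjusted p under 0.05 in 2 or more of the 3 comparisons with FCA, with an adjusted p under 0.05, or past the criterion of the study. Permutation tests were run in Python 3.11.15 with SciPy 1.17.1, and correlations with 100000 resamples. The fit was tested on simulated data. Promoter sequences and neighbours came from RefSeq (GRCr8). Alternatives were each library left out in turn, the replicate number as a block, 1 fit over all 12 libraries, an ordinary F test as Ballgown uses, FPKM summed by gene name, scaling by the median of ratios, no filter, a minimum mean of 10 FPKM, and a pseudocount of 0.1. The comparison columns of the study were not used.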

Additional observations from a re-analysis of the deposited data

Results flagged for a closer look

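Ptger4 in AT01 replicate 2, at 2.99 FPKM, was the lowest of the 9 TCDCA libraries, and its gap to the next was wide for the range of the 9 (Dixon's test at the 95% level). Each of the 10 prostaglandin genes was examined in this way, and chance gives about 1 such case in 20.

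Ptgs2 differed between doses: AT10 exceeded AT1 by 1.34 and AT01 by 1.32 on the log2 scale, with unadjusted p = 0.00614 and 0.0118 from limma and adjusted p = 0.570 and 0.867. These are tests of the difference between doses, and the FCA libraries were not part of them.

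Egr1 also differed between doses, with AT10 above AT1 by 0.88 on the log2 scale (adjusted p = 0.0261 from limma). Over 14 other settings its adjusted p ran from 0.0134 to 0.175 and was over 0.05 in 8.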

How the results depend on the processing

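The call of Ptgs2 in AT10 against FCA changed with several settings. The number of the 8 genes past the criterion of the study there was 1, and it was 0 with no filter, 0 with an ordinary F test as Ballgown uses, 0 with the replicate block, and 0 to 1 with each library left out. Its log2 fold change was 1.16 under the first 3 of these, with unadjusted p = 0.0586, 0.0911 and 0.0650. Leaving out a library gave 0 to 1 gene in AT01 against FCA (Ptges without AT01 replicate 2) and 1 to 2 in AT10 against AT01 (Ptges3 without AT01 replicate 3, 1.22). The number of genes with an adjusted p under 0.05 was 0 under every alternative run.

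Single genes were followed through the settings for all 8 against FCA, and for Ptgs2 and Ptges3 alone between doses and over dose rank. Among these, directions turned only when a library was left out, and only for differences with an unadjusted p over 0.05 from limma. For AT10 against FCA, Ptgs1 ran from -0.26 to 0.18 and Ptger4 from -0.048 to 0.32. For AT1 against FCA, Ptgs1 ran from -0.33 to 0.10, Ptgs2 from -0.55 to 0.071, Ptges3 from -0.14 to 0.41 and Ptger4 from -0.13 to 0.24. For AT01 against FCA, Ptgs2 ran from -0.53 to 0.093, Ptges3 from -0.66 to 0.20 and Ptger4 from -0.35 to 0.10. For AT1 against AT01, Ptgs2 ran from -0.17 to 0.21 and Ptges3 from -0.15 to 0.71. For the 3 doses together, Ptgs1 ran from -0.32 to 0.078, Ptgs2 from -0.10 to 0.53 and Ptger4 from -0.18 to 0.19.

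The study calls the replicate numbers sets of repeats and does not say what a set shared. Over all records tested, same-numbered libraries did not deviate together. Deviations from the group means correlated between -0.11 and 0.09 for 18 same-numbered combinations and between -0.15 and 0.15 for 36 others. A single gene can differ from this, and Pla2g4a was highest in replicate 3 of every group. With the number as a replicate block, limma gave Ptgs2 in AT10 against FCA the same 1.16 with an unadjusted p of 0.0650. Pla2g15 in AT01 then had 0.0555, and Pla2g4a with the 3 doses together had 0.00384. The block changed no other count of the 8 genes past the criterion of the study or with an adjusted p under 0.05. By unadjusted p from limma alone it also gave Pla2g4a 0.0214 in AT10 and 0.0238 in AT1, Ptges 0.0422 in AT01 and the Ptgs2 slope over dose rank 0.0518. Pla2g15 missed the criterion with the F test in AT1 and AT01 and with no filter in AT1.

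Over all records, the count past the criterion moved by over 1.5 times. In AT10 against FCA it was 82, and 147 with a pseudocount of 0.1, 19 at a mean of at least 10 FPKM and 48 with the F test. At that higher mean it was 34 of 72 in AT1, 40 of 88 in AT01, 28 of 69 and 35 of 78 in AT10 against AT1 and AT01, 26 of 66 in AT1 against AT01, and 18 of 57 for the doses together. With the F test it was 43, 57, 45, 32 and 28 in the first 5 of these. A pseudocount of 0.1 gave 118 in AT10 against AT01 and 89 for the doses together. It was 106 without AT10 replicate 3 and 108 without AT1 replicate 3 in AT10 against AT1, and 141 without AT01 replicate 3 in AT10 against AT01. The cause of these shifts was not tested, save that the higher mean leaves fewer records.

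With 3 libraries a group and no read counts, the 95% intervals of Pla2g4a, Ptgs1, Ptges, Ptges2 and Ptger4 against FCA held 0 at every dose. Those of Ptgs2 and Ptges3 left out 0 in AT10 alone, and that of Hpgd in AT1 alone.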
